A study of Mus musculus with 5 samples.

Results

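Merkel cell genes were examined as a set of 10 genes taken by name, out of 21631 protein-coding genes on the 19 autosomes and X. Transcription factors made up 5 of them (Atoh1, Isl1, Gfi1, Insm1 and Prox1) and genes of sensation, secretion and neuronal structure the other 5 (Piezo2, Cck, Tubb3, Rab3c and Tenm2). All 10 are autosomal and have an entry in RefSeq's gene table (GRCm38.p6, which mm10 also names). The data were chromatin immunoprecipitation and sequencing profiles of basal epidermal progenitors sorted from the adult back skin of mice labelled control, at postnatal day 71. The mice carried K14-RFP and K10-H2B-GFP, reporters under promoters of a basal and a suprabasal keratin, and the sort kept Sca1(+), RFP(high), GFP(-) cells. There were 2 libraries against H3K27me3, 2 against H2AK119ub and 1 input library, all of the same genotype and age, so the study offers a comparison of marks and none of treatments. The deposited data are 1 list of called regions per mark, 15102 for H3K27me3 and 33155 for H2AK119ub, with positions only. Read depth, peak heights and the spread between libraries are therefore unknown, no test was made, and a gene without a region may carry a mark below the unknown threshold.

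H3K27me3 is laid down by Polycomb repressive complex 2 and H2AK119ub, ubiquitinated histone H2A, by Polycomb repressive complex 1. Each complex has subunits that recognise the product of the other, and in mammals both favour CG-rich gene starts that are silent in the cell at hand. Merkel cells are the touch receptor cells of the epidermis. They arise from keratin 14-positive epidermal progenitors, the population sorted here, and form synapse-like contacts with sensory nerve endings. Atoh1 is the basic helix-loop-helix factor required for their formation, and the other 9 genes belong to the programme of the mature cell or of the neuroendocrine cells it resembles.

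Every Merkel cell gene had H3K27me3 and all but Rab3c had H2AK119ub within the gene body and 20 kb on each side, the window used throughout unless stated. A region counted if it shared at least 1 bp with the window. H3K27me3 was present at 10 of the 10 genes, against 44.5% of all protein-coding genes and 42.5% of autosomal ones. H2AK119ub was present at 9 of 10, against 71.8% of all and 71.5% of autosomal genes, a smaller distance from the general level. Both marks were present at 9 of 10, against 40.3% of all and 38.5% of autosomal genes. Longer windows meet a region more easily, and these general levels were not matched for gene length. The windows of Piezo2, Rab3c and Tenm2, of 418, 267 and 1270 kb, had 2.16%, 2.49% and 4.16% in H3K27me3. The 10 windows held 14 H3K27me3 regions and 34 H2AK119ub regions, of which Tenm2 alone accounted for 5 and 19. H3K27me3 covered a median of 33.8% of the members' windows, against 0% over all protein-coding genes, and H2AK119ub a median of 38.4%, against 22.1%. Of the H3K27me3 length in a window, a median of 81.2% was also H2AK119ub at the members. At all protein-coding genes with H3K27me3 the median was higher, at 90.4%, with quartiles of 39.7% and 100%. The members' median was 94.8% with the gene body alone and 92.1% with flanks of 5 kb, for which no general value was computed. With flanks of 20 kb, a median of 88.4% of the H2AK119ub length was also H3K27me3 at the 9 members with H2AK119ub. The median was 4.59% at all protein-coding genes with H2AK119ub. Only 8728 of those 15536 genes had both marks, and a gene without H3K27me3 scores 0 here, whereas all 9 members had both. A median over genes with both marks was not computed. Expression was not measured, and neither the number of Merkel cells in the sort nor the activity of these genes in the sorted cells can be read from the lists. Markers of basal keratinocytes, the labelled cells, carried H3K27me3 at 3 of 8 genes and H2AK119ub at 8 of 8, with median window shares of 0% and 91.2%. H3K27me3 was also found at 2 of 5 suprabasal, 2 of 5 melanocyte, 4 of 5 fibroblast, 3 of 4 immune and 2 of 3 endothelial marker genes. In that order its median window shares were 0%, 0%, 43.8%, 28.3% and 0.215%, so the fibroblast list stood above the members. H2AK119ub was found at 4 of 5, 4 of 5, 3 of 5, 4 of 4 and 3 of 3 of these genes, in the same order.

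The marks lay over the starts of most of the genes. A start was listed in RefSeq for 8 members, and it lay in H3K27me3 at 7 of these 8, against 19.4% of protein-coding genes with a listed start. It lay in H2AK119ub at 6 of 8, against 39.4%. The exceptions were Rab3c, whose start had H3K27me3 without H2AK119ub, and Tenm2, whose listed start had neither. The 300 bases around a start, from 250 before it to 50 from it onward, are shown for 4 genes in GRCm38.p6 so that the letters under these combinations can be compared. They were picked after the values were seen, as the CG-richest start, that of Atoh1, the start with H3K27me3 alone and the start with neither mark. Each is written 5′ to 3′ on the gene's own strand, and capitals mark CG dinucleotides, the only capitals used.
Isl1, both marks, chr13:116309639-116309938, minus strand: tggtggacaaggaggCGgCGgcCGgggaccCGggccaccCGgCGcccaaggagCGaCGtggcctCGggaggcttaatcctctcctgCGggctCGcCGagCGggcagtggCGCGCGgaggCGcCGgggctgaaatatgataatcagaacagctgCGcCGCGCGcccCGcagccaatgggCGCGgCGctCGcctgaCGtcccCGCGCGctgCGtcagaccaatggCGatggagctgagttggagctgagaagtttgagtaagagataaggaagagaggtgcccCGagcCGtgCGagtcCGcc
Atoh1, both marks, chr6:64728875-64729174, plus strand: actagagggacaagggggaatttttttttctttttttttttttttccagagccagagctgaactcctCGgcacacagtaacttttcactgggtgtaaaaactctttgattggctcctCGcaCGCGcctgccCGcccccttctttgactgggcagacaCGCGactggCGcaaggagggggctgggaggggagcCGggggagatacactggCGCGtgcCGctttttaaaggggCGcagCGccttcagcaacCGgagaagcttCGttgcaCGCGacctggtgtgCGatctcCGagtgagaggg
Rab3c, H3K27me3 alone, chr13:110280157-110280456, minus strand: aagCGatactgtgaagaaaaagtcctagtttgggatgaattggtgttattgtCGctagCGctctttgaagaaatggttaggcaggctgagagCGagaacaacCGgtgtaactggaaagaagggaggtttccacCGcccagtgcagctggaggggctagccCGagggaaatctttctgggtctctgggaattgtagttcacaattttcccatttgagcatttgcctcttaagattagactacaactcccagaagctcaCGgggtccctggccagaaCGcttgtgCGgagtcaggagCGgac
Tenm2, neither mark at this start, chr11:36944192-36944491, minus strand: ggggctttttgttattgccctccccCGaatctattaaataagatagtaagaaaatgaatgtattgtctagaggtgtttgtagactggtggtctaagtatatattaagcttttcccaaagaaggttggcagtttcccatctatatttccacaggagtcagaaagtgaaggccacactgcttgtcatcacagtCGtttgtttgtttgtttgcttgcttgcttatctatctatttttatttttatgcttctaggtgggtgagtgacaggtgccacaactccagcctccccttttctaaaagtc
Isl1 had 37 CG dinucleotides in these 300 bases, Atoh1 had 20, Rab3c had 11 and Tenm2 had 2. Starts with both marks had a median of 15 over protein-coding genes, starts with H3K27me3 alone a median of 7, and starts with neither mark a median of 13. The other listed starts with both marks were those of Tubb3 with 26, Prox1 with 25 and 14, Gfi1 with 16 and 10, and Cck with 10, so that the members with both marks ran from 10 to 37, where the quartiles of the class were 7 and 25. CAGCTG, an E-box that reads the same on both strands and is a form bound by Atoh1-type factors, occurred in 2 of the 10 listed starts, those of Isl1 and Rab3c, against 15.7% of protein-coding starts. A match is a description of letters and not a binding site.

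**Figure D1:**
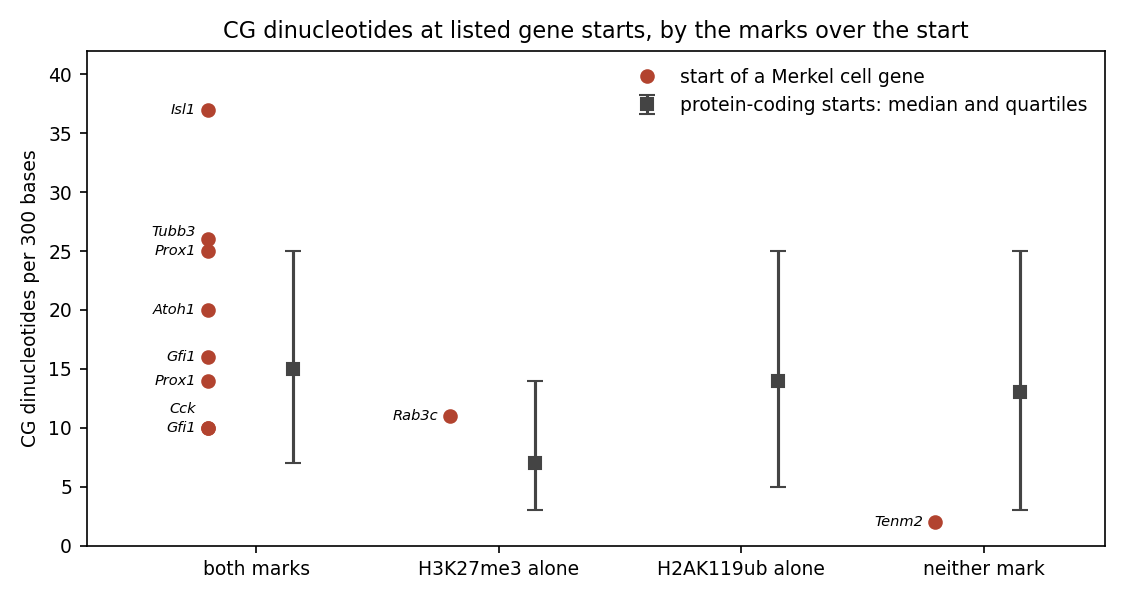
CG dinucleotides in the 300 bases around listed gene starts (y axis), grouped by the marks that cover the start (x axis). Red points are the 10 listed starts of 8 Merkel cell genes, and grey squares with bars are the median and quartiles over all protein-coding starts of the class. Isl1 stands highest at 37, and Tenm2, in the class with neither mark, lowest at 2.

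All 5 transcription factor genes had both marks over at least part of the gene. Their widest regions were narrowest at Atoh1 (chr6:64729125-64731245, a gene of 2.12 kb), which had 1 H3K27me3 region of 15.2 kb and 1 H2AK119ub region of 9.46 kb that lay wholly inside it. Regions as wide or wider made up 20.8% of the autosomal H3K27me3 list and 43.6% of the autosomal H2AK119ub list, whose median width was 8.09 kb. H3K27me3 began 2.97 kb before the start and ended 12.2 kb after it, and H2AK119ub began 1.81 kb before and ended 7.65 kb after, so the longer arm of both marks lay over and beyond the gene. No other protein-coding gene overlapped either region, and the long noncoding gene Gm35851 ends within both regions. The H2AK119ub region of Atoh1 was solitary in its list. The next one lay 2986 kb below and 931 kb above, where the median gap between autosomal H2AK119ub regions was 7.67 kb, while other H3K27me3 regions lay 33.7 kb below and 56.1 kb above.

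Isl1 encodes a LIM homeodomain factor of sensory and motor neurons that is also present in Merkel cells. Its gene (chr13:116298270-116309688) lay entirely inside an H3K27me3 region of 33.8 kb and an H2AK119ub region of 33.2 kb. The 2 regions were nearly the same interval, sharing 33.1 kb, or 97.7% of their combined length in the window. Each reached about equally far to the sides of the gene, 11 kb beyond its lower-coordinate end for both marks and 11.5 kb (H3K27me3) or 10.8 kb (H2AK119ub) upstream of the start. The next region of either mark was at least 279 kb away.

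Gfi1, a zinc finger repressor downstream of Atoh1 in several cell lineages of the mouse, had the widest regions of the set. H3K27me3 spanned 63.4 kb (chr5:107675154-107738525) and H2AK119ub spanned 56.5 kb (chr5:107681553-107738070). Only 1.20% of autosomal H3K27me3 regions were as wide or wider. Most of the domain lay downstream of the upstream-most start, 50.7 kb of the H3K27me3 and 44.3 kb of the H2AK119ub region, and it took in the whole long noncoding gene 4930428O21Rik. The neighbouring protein-coding gene Evi5 reaches 1.01 kb into the window, and no region over Gfi1 reached it.

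Insm1, a zinc finger factor of neuroendocrine differentiation, had a 41.1 kb H3K27me3 region (chr2:146198382-146239452) over a gene of 3.02 kb. A 33.4 kb H2AK119ub region covered the gene as well, and a second of 7.83 kb followed after a gap of 1.48 kb with no H3K27me3. The marks were displaced against each other here. H3K27me3 reached further toward lower coordinates, where both marks entered the annotated body of Cfap61, and H2AK119ub reached further toward higher coordinates, where it alone entered that of Ralgapa2. Prox1, a homeodomain factor of several neuroendocrine and lymphatic lineages, was marked over 1 end only. Its 29.2 kb H3K27me3 region (chr1:190152922-190182145) covered the start and 33.9% of the 52.8 kb body, and H2AK119ub covered 22.7% of the body in regions of 20.9 kb and 1.48 kb. The 3 kb gap between those H2AK119ub regions was filled by H3K27me3. The long noncoding gene Prox1os overlaps the start and lies partly in both marks.

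**Figure D2:**
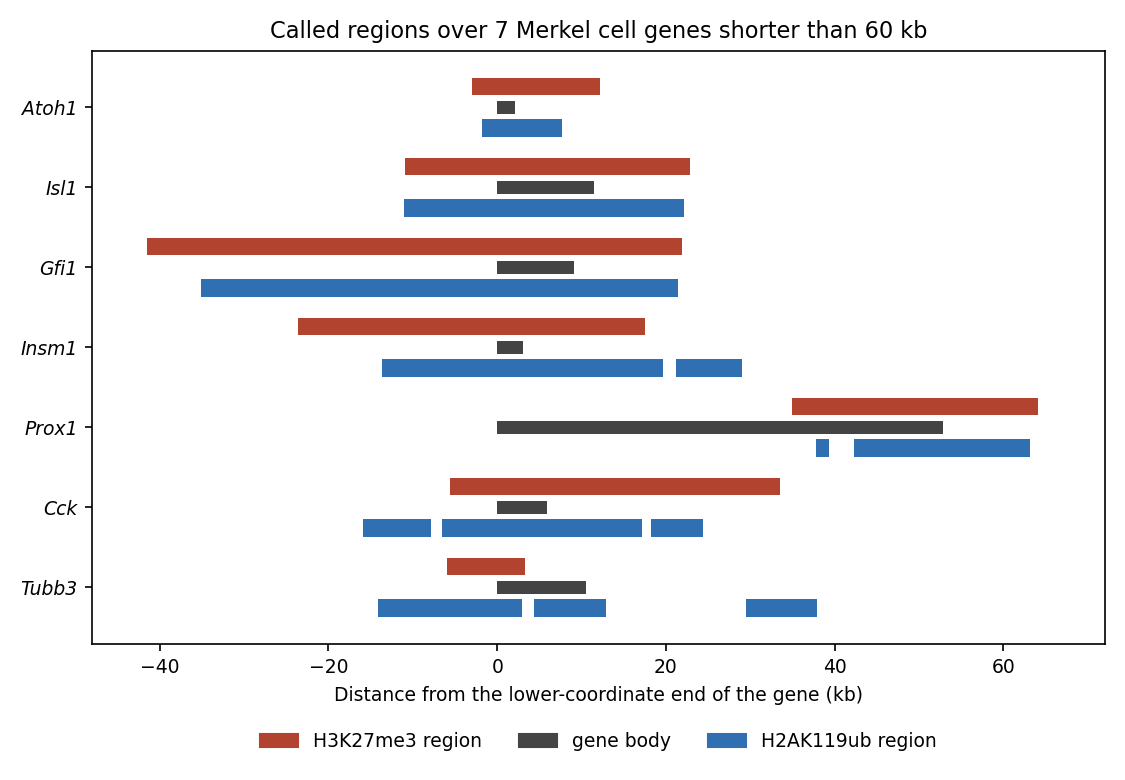
Regions of both marks over the 7 Merkel cell genes shorter than 60 kb, drawn as distance in kb from the lower-coordinate end of each gene (x axis), with H3K27me3 above, the gene body in grey and H2AK119ub below. H3K27me3 formed 1 unbroken region at each of these genes, from 9.17 kb at Tubb3 to 63.4 kb at Gfi1, while H2AK119ub came in 1 to 3 regions.

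The other 5 genes differed more among themselves, from a gene-wide domain at Cck to a single narrow H3K27me3 region at Rab3c. Cck encodes cholecystokinin, a peptide found in the secretory granules of Merkel cells. It lay wholly inside a 39.0 kb H3K27me3 region (chr9:121484269-121523281), which extended 27.6 kb upstream of the start and 11.4 kb downstream of it. H2AK119ub came in 3 regions, of 8.13, 23.8 and 6.11 kb, separated by gaps of 1.24 and 1.08 kb, and the middle one covered the gene. The long noncoding gene Gm38661 overlapped the H3K27me3 region and the 2 H2AK119ub regions at higher coordinates. The 8.13 kb H2AK119ub region overlapped the protein-coding gene Trak1.

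Tubb3, the neuron-type beta-tubulin gene, had less H3K27me3 (9.17 kb) than H2AK119ub (26.5 kb) in its window. H2AK119ub also covered more than H3K27me3 at Piezo2, Cck and Tenm2, and less at the 5 transcription factor genes and Rab3c. H3K27me3 covered the start and 31.2% of the body and H2AK119ub covered 86.6% of the body. The H3K27me3 region and the 17.1 kb H2AK119ub region also contained the whole of Mc1r, the melanocortin receptor gene of melanocytes next to Tubb3. Neither region can therefore be assigned to Tubb3 alone. The 17.1 kb region overlapped the neighbour Tcf25 as well, and an H2AK119ub region of 8.41 kb overlapped Def8.

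Piezo2 encodes the mechanically gated ion channel of Merkel cells and touch neurons. Over its 378 kb body and flanks there was a single H3K27me3 region of 9 kb (chr18:63381830-63390829). It covered the higher-coordinate end of the gene. An H2AK119ub region of 7.15 kb lay within it, and a second of 6.38 kb lay alone near the middle of the body, 180 kb away from the first. H3K27me3 took up 2.16% and H2AK119ub 3.24% of the window, and no other H3K27me3 region lay within 723 kb below or 303 kb above. Rab3c, a small GTPase of secretory vesicles, had a 6.65 kb H3K27me3 region (chr13:110277478-110284125) over its start and no H2AK119ub in the window. The nearest H2AK119ub regions lay 31.1 kb beyond the lower-coordinate end and 112 kb beyond the higher-coordinate end of the gene. This was the narrowest of the members' widest H3K27me3 regions, and 57.4% of autosomal H3K27me3 regions were as wide or wider.

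Tenm2 encodes a teneurin, a large transmembrane protein of synaptic adhesion, and shared least among the 9 members with both marks, with 8.70% of the combined length of the marks in both. Its annotated body of 1230 kb (chr11:36006656-37237053) and flanks held 19 H2AK119ub regions with 198 kb in the window and 5 H3K27me3 regions with 52.9 kb, of which 20.1 kb were shared. Of the H2AK119ub regions 16 shared nothing with H3K27me3. All 19 lay in the lower-coordinate part of the window, the last of them ending 553 kb short of the gene's higher-coordinate end. Beyond it the list had no H2AK119ub region for 6251 kb. H3K27me3 alone, in a region of 13.6 kb, covered the higher-coordinate end, which is the 5′ end of the body on the minus strand, while the start listed in RefSeq lay 245 kb from the nearest H3K27me3 and 260 kb from the nearest H2AK119ub region. The widest overlap was inside the body, where an 11.5 kb H2AK119ub region lay within a 23.1 kb H3K27me3 region (chr11:36668871-36692009). Having some H3K27me3 is common in genes of this size, at 53 of the 59 protein-coding genes of 1 Mb or more, against 44.5% of all protein-coding genes. H2AK119ub was present at 41 of the 59, near the 71.8% of all protein-coding genes. The covered share was 4.16% for H3K27me3 at Tenm2, against a median of 0.784% and an upper quartile of 2.45% in those 59 genes, and 15.6% for H2AK119ub, against a median of 0.670% and an upper quartile of 3.66%.

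**Figure D3:**
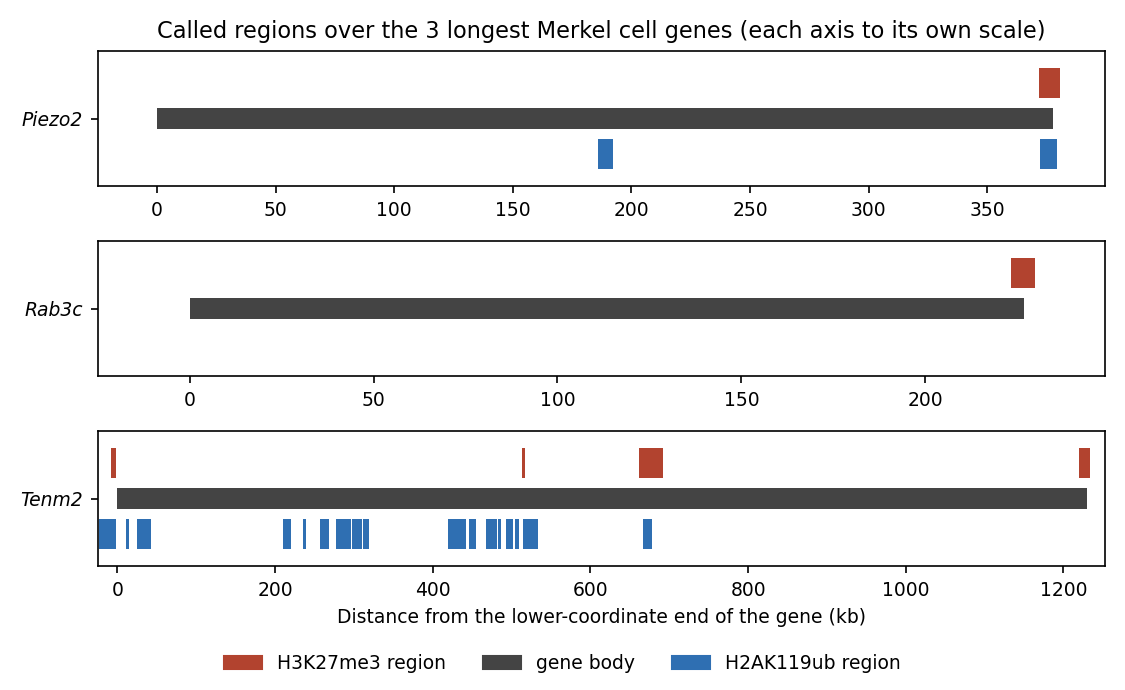
Regions of both marks over Piezo2, Rab3c and Tenm2, as distance in kb from the lower-coordinate end of each gene (x axis, each panel to its own scale), with H3K27me3 above, the gene body in grey and H2AK119ub below. Single H3K27me3 regions of 9 kb and 6.65 kb sat at the higher-coordinate ends of Piezo2 and Rab3c, and the 19 H2AK119ub regions of Tenm2 lay in the part of the window away from that end.

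The bodies of Atoh1, Isl1, Gfi1, Insm1 and Cck were entirely inside H3K27me3 and also entirely inside H2AK119ub, which is 5 of 10 for each mark, against 6.42% of protein-coding genes for H3K27me3 and 17.4% for H2AK119ub. These 5 genes are between 2.12 and 11.4 kb long, and short genes are more easily covered, although Tubb3, of 10.5 kb, was covered only in part. Prox1, Tubb3, Piezo2, Rab3c and Tenm2 had 33.9%, 31.2%, 1.56%, 1.55% and 3.54% of the body in H3K27me3.

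The edges of the marks were compared in the pair of regions that shared the most bases at each gene. Such a pair existed at 9 genes and gave 18 edges. H3K27me3 reached further out at 14 of these 18, against 31.6% of the edges at autosomal genes with such a pair and 35.9% when each distinct pair was counted once. Both of its edges lay outside those of H2AK119ub at 5 genes, Atoh1, Gfi1, Prox1, Piezo2 and Tenm2, against 16.6% of autosomal genes. The members' H3K27me3 regions were wide, with a median of 29.2 kb in these pairs against 11.2 kb at autosomal genes, and their H2AK119ub regions had a median of 20.9 kb against 24.2 kb. Among distinct autosomal pairs with H3K27me3 of 20 kb or more, a limit set after the values were seen, H3K27me3 reached further out at 54.1% of edges. The 6 members past that limit had it further out at 9 of 12 edges, against that 54.1%.

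Edges of the paired regions within 1 kb of each other were found at 6 of 18, against 14.8% at autosomal genes, and the median distance over the 18 was 1.74 kb, against 6.08 kb. The 6 members with H3K27me3 of 20 kb or more had 4 of 12, against 11.0% of edges of autosomal pairs of that width. At Isl1 both edges met, with offsets of 60 bp at the lower-coordinate and 703 bp at the higher-coordinate edge, and both edges of a pair met at 2.93% of autosomal genes. A single edge met at Gfi1, Prox1, Piezo2 and Tubb3. Gfi1 had its upstream edges 0.455 kb apart and its downstream edges 6.40 kb apart, and Prox1 had distances of 0.926 kb upstream and 7.38 kb downstream, or 2.90 kb downstream when the 1.48 kb H2AK119ub region was taken. Atoh1 followed the same order without reaching 1 kb, with 1.17 kb upstream and 4.56 kb downstream. Tubb3 had the reverse, 8.25 kb upstream and 0.346 kb downstream, as did Cck with 16.3 kb and 1.02 kb. The nearest H2AK119ub edge to the upstream edge at Cck was 3.79 kb away and belonged to a further region just outside the window. Over the 7 members with a listed start and a pair, the upstream edges were the closer ones at 3, against 53.1% of autosomal genes with a listed start, a share near the general level. At Piezo2, for which no start was listed, the offsets were 0.617 kb at the lower-coordinate and 1.24 kb at the higher-coordinate edge. Insm1 had 9.96 kb and 2.24 kb, the second in favour of H2AK119ub, and Tenm2 had 3.98 kb and 7.63 kb.

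**Figure D4:**
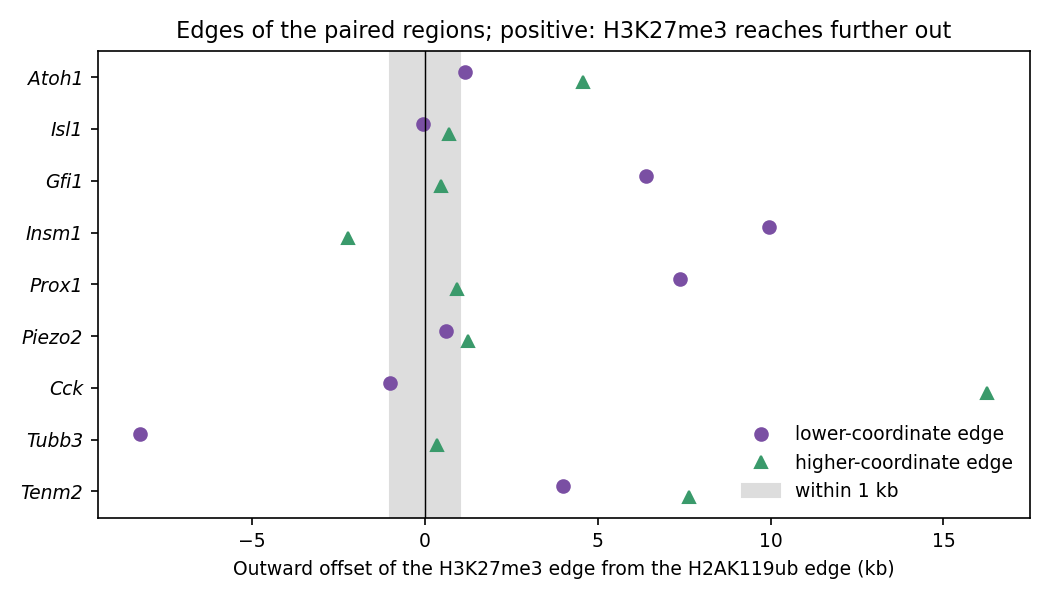
Outward offset in kb of the H3K27me3 edge from the H2AK119ub edge (x axis) in the pair of regions sharing the most bases, for 9 Merkel cell genes (y axis). Purple circles are lower-coordinate and green triangles higher-coordinate edges, values above 0 mean that H3K27me3 reached further out, and the grey band marks 1 kb. Most points, 14 of 18, lie to the right of 0, and Isl1 is the only gene with both points in the band.

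When every H3K27me3 edge in the windows was matched to the nearest H2AK119ub edge of the same side, in place of one pair per gene, 7 of 28 edges (25%) lay within 1 kb, against 13.7% of edges at all and 11.9% at autosomal protein-coding windows. The median distance was 3.89 kb at the members, against 8.49 kb at all and 8.62 kb at autosomal windows. This median depended on the setting, at 7.30 kb with flanks of 50 kb, 7.32 kb with the outermost edges per gene and 8.92 kb with regions up to 5 kb apart joined, against 8.83, 17.7 and 15.7 kb at autosomal windows under the same settings. With flanks of 50 kb the members were thus close to the general level. Tenm2 gave 10 of the 28 edges, and without it 6 of 18 (33.3%) lay within 1 kb. The largest distances were those of its H3K27me3 region at the higher-coordinate end, up to 556 kb.

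Genes from the rest of the Merkel cell programme had the marks in most cases too. Of 16 other Merkel cell genes, 14 had both marks, against 40.3% of all protein-coding genes. Pclo, a scaffold protein of the presynaptic zone, and Vip, a neuropeptide gene, had neither. H3K27me3 was widest at the X-linked synaptic vesicle gene Syp (102 kb), at Krt8 and Krt18, simple-epithelium keratins that share 1 region of 82.3 kb, and at Sox2 (61.4 kb), a factor upstream of Atoh1. A general level for X-linked genes alone was not computed, so Syp has no matching comparison. The list had median window shares of 19.4% for H3K27me3 and 32.5% for H2AK119ub, against 0% and 22.1% over all protein-coding genes. This list overlaps one already described from these data, so it gives no independent support.

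Paralogues of the members carried H2AK119ub in every case and H3K27me3 less widely. Of 21 paralogues, 15 had H3K27me3, against 44.5% of all protein-coding genes, and 21 had H2AK119ub, against 71.8%. Their median window shares were 15.4% and 70.8%, against 33.8% and 38.4% at the members. Piezo1, the broadly used relative of Piezo2, had H3K27me3 over 3.55% of its window and H2AK119ub over 98.0%. Rab3d, another secretory GTPase, had no H3K27me3 and H2AK119ub over 70.8%, where Rab3c had H3K27me3 alone. Rab3a had both, H3K27me3 over 37.7% and H2AK119ub over 94.4%. Tenm4 had no H3K27me3 and 27 H2AK119ub regions, and Tenm3 had 3 regions of each. Among beta-tubulins Tubb2a, Tubb4b and Tubb5 had H2AK119ub alone, and among the factors so did Prox2. Window shares of H3K27me3 and H2AK119ub were 15.4% and 44.1% at Atoh7, 43.7% and 100% at Atoh8, and 29.9% and 94.2% at Isl2. They were 53.9% and 83.5% at Gfi1b, 32.0% and 90.9% at Gast, and 93.4% and 39.1% at Tenm1, which is X-linked and also lacks a matching comparison. The widest H3K27me3 region at Insm2 (29.5 kb) was wider than its widest H2AK119ub region (9.06 kb). That order also held at Insm1 and the other transcription factor members, and at Piezo2, Cck and Rab3c, but not at Tubb3 or Tenm2. Among the other paralogues of the factors it held at Gfi1b (22.9 and 22.5 kb), and the reverse held at Atoh7, Atoh8, Isl2 and Prox2. The share of all genes with this order was not computed.

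Likeness of pattern was measured over the shares of the window with both marks, either mark alone and neither. It was the number of percentage points that would have to move between these classes for 2 genes to match. Autosomal genes whose body length was within 2 times were compared. For Atoh1, compared with 2484 genes, those near it included Bhlhe22 (3.1), a basic helix-loop-helix factor gene, and Tex50 (3.25). For Isl1 the nearest of 6836 were Esam (1.39), Prrt4 (3.55) and Hmx2 (4.85), a homeobox gene. For Tenm2 the nearest of 137 were Dlgap2 (1.92), Nckap5 (2.36) and Dab1 (3.20).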

How the data were processed

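Per the labels' protocols, the libraries were read as 75 nt single reads. The submitters' processing notes name Bowtie2 2.3.3.1, SAMtools 1.9 and mm10, with no role or order. Per the file headers, the authors deposited chromosome, start and end of each region for 1 list per mark. How regions were called, at which threshold, with or without the input, and from pooled libraries or not, was not given in the sources used here, yet it sets the width and edges of every region. Starts were taken as counted from 0 and shifted by 1, which leaves positions uncertain by 1 bp.

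Gene ends came from the RefSeq table and starts, strands and sequences from the RefSeq start table, both of GRCm38.p6. The gene table has no exons, so exonic and intronic positions were not assigned. Insm1 and Piezo2 are given by annotated ends. Windows were the gene body plus 20 kb, overlap was at least 1 bp, and an edge within 1 kb counted as aligned. The lists of genes nearest in pattern, of paralogues and of other Merkel cell genes followed a written rule. Some paralogues are counted without being named. One gene that the rule named as near in pattern to Atoh1 is not reported here. The members and lists were chosen with earlier results of these data known. Neighbouring genes share regions, so genes are not independent, and no p-value was computed. Comparisons with all genes are descriptions. The functions for overlap and edges were tested on simulated data. Python 3.11.15, pandas 2.3.3 and NumPy 2.4.6 were used.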

Additional observations from a re-analysis of the deposited data

How the results depend on the processing

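All 52 recomputed counts of genes or paired edges stayed within 1.5 times the value given in the report. This was a weak check, because counts of members with a mark cannot exceed 10, and wider flanks or joined regions cannot lower them. The counts include an alternative chosen after seeing the data, which took either annotated end of all 10 genes. For it, 10 genes had H3K27me3 and 8 had H2AK119ub. The reported 7 and 6 are for the starts of the 8 genes with a listed start, so these counts are unlike. Median shares and distances moved with the window and the treatment of regions, as their construction implies. In the order window share of H3K27me3, window share of H2AK119ub, share of H3K27me3 also H2AK119ub and the reverse share, the medians were 67.0%, 93.3%, 94.8% and 100% with the gene body alone. They were 61.8%, 77.0%, 92.1% and 100% with 5 kb, and 21.1%, 23.0%, 75.3% and 82.8% with 50 kb, where the median edge distance was 7.30 kb. The median window share of H2AK119ub was 37.6% with regions of at least 2 kb or 5 kb, 39.7% with regions up to 2 kb apart joined and 41.4% with 5 kb. The median edge distance was 4.27 kb, 5.48 kb, 5.48 kb and 8.92 kb in these 4 settings. Joining gave a median share of H2AK119ub also H3K27me3 of 84.8% at either distance, against 88.4% as reported, and of H3K27me3 also H2AK119ub of 85.0% at 5 kb, against 81.2%. Using the outermost edges per gene gave a median edge distance of 7.32 kb, and the share of edges aligned was 14.3% at a tolerance of 500 bp, 39.3% at 2 kb and 57.1% at 5 kb, against 7.70%, 19.4% and 36.7% at autosomal windows. The value at 5 kb lay outside the 95% Clopper-Pearson interval of 10.7 to 44.9% around the 25% at 1 kb, which treats edges as independent. A wider tolerance on the same edges can only raise the share, so nothing is concluded from that comparison. Autosomal values under these settings were added after seeing the data. No paired analysis was possible because each mark has 1 list with no replicate column, and for the same reason no library could be left out. Depth is unknown, so a missing region is no evidence of an absent mark.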
